A study of Mus musculus with 4 samples.

Results

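Fos and Jun transcription factors were read from messenger RNA sequencing of the medial prefrontal cortex (mPFC) of mice, as the 6 genes Fos, Fosb, Fosl2, Jun, Junb and Jund, which were found by symbol among 17778 genes. The control group (2 libraries) held juvenile male C57BL/6 mice (C57BL/6J in the study's methods) that lived without the stressors named next. The CUMS group (2 libraries) held mice of the same strain and sex that went through chronic unpredictable mild stress (CUMS), a schedule of changing mild stressors such as isolation, restraint, noise and a tilted or damp cage, for 3 weeks. Mice of both groups entered the study at postnatal day 21, and the stressed mice that were sequenced had been selected for depression-like behavior in tests of sucrose preference, Y-maze and forced swimming. These selected mice were a minority of the stressed ones. The study's control mice went through the same tests, and both groups were deprived of food and water before each sucrose test. No transgene is described for either group, and mice of both groups were under isoflurane, a gaseous anesthetic, when they were killed. Tissue from both sides of the mPFC was taken 24 hours after the behavior tests, and the study does not state whether a library came from a single mouse. The values are reads scaled to the length of the gene and to the depth of the library (RPKM), which the authors had averaged over the libraries of a group. Each gene therefore has a mean for control and a mean for CUMS, single libraries have none, and no difference below has a replicate check: how far mice of a group differ from each other is not known.

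Fos and Jun proteins bind DNA as pairs that are together called activator protein 1 (AP-1). Each protein carries a basic region that touches DNA and a leucine zipper that holds the pair together. Fos proteins cannot pair with each other and need a Jun partner, whereas Jun proteins can also pair among themselves. In neurons Fos, Fosb and Junb are immediate early genes. Their transcription starts within minutes of synaptic activity through the factors CREB and SRF, needs no new protein, and ends soon, and the Fos mRNA is removed quickly. For this reason Fos mRNA is widely used as a mark of recently active neurons. Jund is made more steadily in many cells, and Fosl2 (also called Fra-2) follows later than Fos. Fosb gives a full-length protein and, by splicing, the long-lived form known as deltaFosB. A value per gene cannot separate these forms.

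The promoters of the genes are shown first, because CREB acts through a short DNA element. The 250 bases before the annotated start of each of the 6 genes were read from the RefSeq promoter table (GRCm38.p6, the same chromosomes as the mm10 build of the study). Both strands were searched for the CRE core TGACG, for the full element TGACGTCA that contains it, for the AP-1 site TGANTCA, for the variant TGACATCA known from the Jun promoter, for the CArG box of SRF, for the CCAAT box and for the TATA motif TATAAA. The 150 bases next to the start are printed for Fos, Fosb, Jun and Junb, which hold all the matches. They are written 5′ to 3′ on the strand of the gene in lower case, and capitals mark the matches.
Fos (chr12:85473740-85473889, plus strand): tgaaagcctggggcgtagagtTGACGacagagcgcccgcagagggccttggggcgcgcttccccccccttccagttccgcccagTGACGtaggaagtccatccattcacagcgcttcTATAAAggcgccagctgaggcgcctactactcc
Fosb (chr7:19310046-19310195, minus strand): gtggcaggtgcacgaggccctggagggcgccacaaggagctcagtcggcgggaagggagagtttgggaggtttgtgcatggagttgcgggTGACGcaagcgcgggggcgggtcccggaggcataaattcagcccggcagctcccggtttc
Jun (chr4:95052223-95052372, minus strand): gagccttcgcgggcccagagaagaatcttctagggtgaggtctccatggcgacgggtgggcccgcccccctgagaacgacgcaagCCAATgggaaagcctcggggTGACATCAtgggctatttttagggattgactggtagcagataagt
Junb (chr8:84978749-84978898, minus strand): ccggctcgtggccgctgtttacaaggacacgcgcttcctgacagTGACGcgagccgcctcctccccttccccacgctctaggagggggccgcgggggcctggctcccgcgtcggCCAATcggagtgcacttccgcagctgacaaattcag

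The CRE core was found in 3 of 6 members, against 17.8% of 32851 promoters. This share was not matched for base composition. Of the 250 bases, 58.4% were G or C in Fos, 68.8% in Fosb and 66.4% in Junb. The members without the core had 61.2% (Jun), 64.4% (Fosl2) and 47.6% (Jund), and the median of all promoters was 52.4%. Fos held the CRE core at 2 places, -129 to -125 and -66 to -62 from the start. It also held the TATA motif at -33 to -28, which 12.4% of all promoters hold. Fosb held the CRE core at -60 to -56 and Junb at -106 to -102. Jun held TGACATCA at -45 to -38, a form found in 2.93% of promoters, and a CCAAT box at -65 to -61. The TGACATCA form was searched because it is known from the Jun promoter, so that its match there was foreseen. Junb held a CCAAT box at -36 to -32, and 33.8% of all promoters hold one. Within the 250 bases the full TGACGTCA, TGANTCA and the CArG box were found in 0 of 6 members and in 1.55%, 6.75% and 1.47% of promoters. Bases further from the start were not searched, so these counts do not show that a gene lacks such a site. Fosl2 and Jund had no match to any of these motifs. For them the window is less certain than for the others, because the start in GENCODE M21 lies 671 bases from that of the RefSeq table for Fosl2 and 1210 bases from it for Jund, and at most 30 bases from it for the other members. The longest RefSeq form of Fosb reaches to 19310118, so that the bases printed next to its start are transcribed in that form. The matches are letters in a window and are not measured binding. A link between the matches and the differences between groups was not tested.

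**Figure D1:**
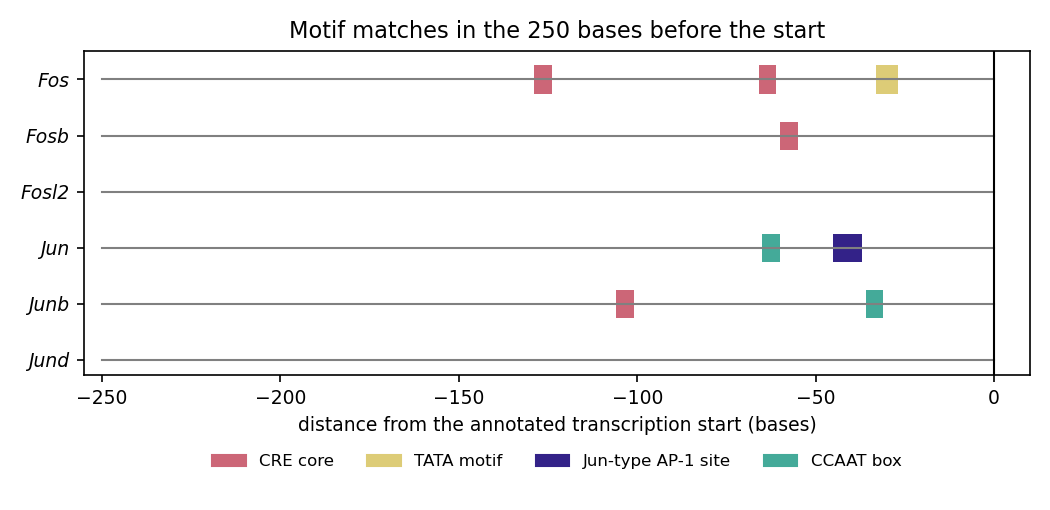
Motif matches in the 250 bases before the annotated start of each gene. The horizontal axis is the distance from the start in bases, each grey line is 1 gene, and colored blocks are matches to the named motifs on either strand. The CRE core appears in Fos at 2 places and in Fosb and Junb at 1 place each, and the lines of Fosl2 and Jund are empty.

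The first comparison asked whether the mRNA levels of the Fos and Jun genes differed between depression-like and control mice. All 6 means were lower in CUMS, and 5 of them were lower by more than counting error. The difference was largest for Fos, next for Fosb, smaller for Junb, Fosl2 and Jun, and within counting error for Jund. The counting intervals below come from the estimated number of sequenced fragments behind each mean, about 7385520 per control library and 7440480 per CUMS library. They say nothing of differences between mice. In bulk tissue fewer cells of a type and less RNA per cell cannot be told apart.

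Fos (gene 14281, chromosome 12, 85473890 to 85477274) measured 46.4 RPKM in control (95% counting interval 44.02 to 48.8, 1444 fragments) and 22.3 RPKM in CUMS (20.6 to 23.97, 698 fragments). The log2 ratio of CUMS over control was -1.06 (-1.19 to -0.93), so that the CUMS mean was 48.0% of the control mean. Among the 9397 genes that reached 5 RPKM in control or CUMS it was the 25th lowest ratio.

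Fosb (gene 14282, chromosome 7, 19302696 to 19310118) measured 10.8 RPKM in control (605 fragments) and 6.94 RPKM in CUMS (390 fragments). Its log2 ratio was -0.64 (-0.83 to -0.46), the 95th lowest of the 9397 genes. Fosl2 (gene 14284, chromosome 5, 32136472 to 32157840) measured 11.5 RPKM in control (999 fragments) and 8.54 RPKM in CUMS (748 fragments). Its log2 ratio was -0.43 (-0.57 to -0.29), and 2.79% of the 9397 genes had a ratio as low or lower.

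Among the partners, Junb (gene 16477, chromosome 8, 84976909 to 84978748), an inducible Jun that activates fewer targets than Jun itself, measured 79.5 RPKM in control (2162 fragments) and 58.3 RPKM in CUMS (1597 fragments). The log2 ratio of Junb was -0.45 (-0.54 to -0.35). Jun (gene 16476, chromosome 4, 95049036 to 95052222), the founding partner of Fos, measured 26.4 RPKM in control (1241 fragments) and 20.4 RPKM in CUMS (968 fragments). The log2 ratio of Jun was -0.37 (-0.49 to -0.25), and 3.92% of the 9397 genes had a ratio as low or lower. Jund (gene 16478, chromosome 8, 70697739 to 70700616) measured 65.6 RPKM in control (2790 fragments) and 64.5 RPKM in CUMS (2764 fragments). Its log2 ratio was -0.02 (-0.10 to 0.05), and 45.5% of genes had a ratio as low or lower. The median of all 9397 genes was -0.01, and their central 90% lay between -0.33 and 0.27.

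**Figure D2:**
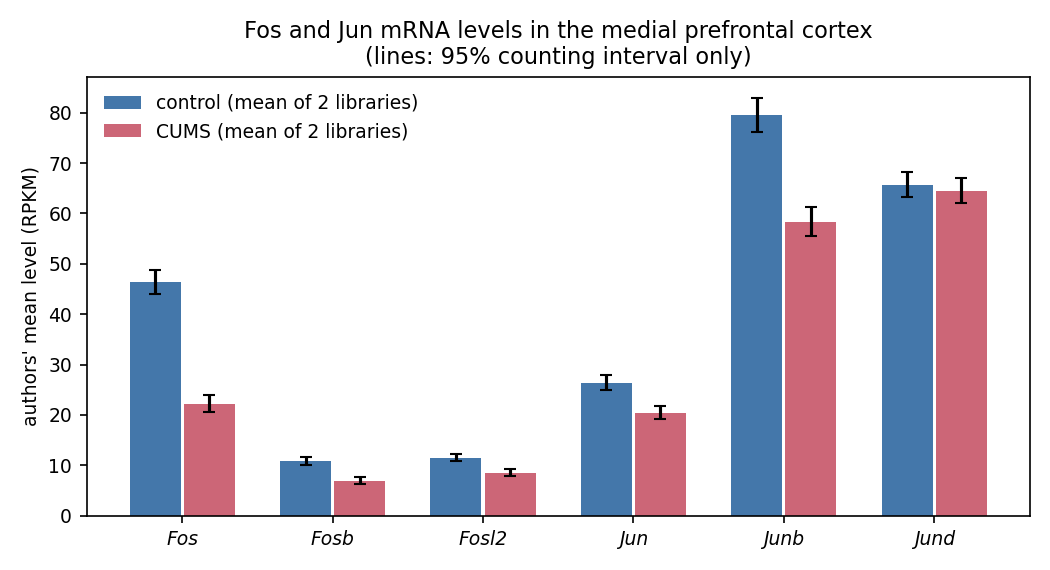
Level of each gene in RPKM (vertical axis, from 0) in control (blue) and CUMS (red). Bars are the authors' means of 2 libraries and lines are 95% counting intervals, which leave out differences between mice. The intervals of the groups stand apart for 5 genes and overlap for Jund, at 65.6 and 64.5 RPKM.

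Set against all genes, the share of members that were lower was above the background under each rule of counting. A fold above 1.5 in the lower direction was seen in 2 of 6 members, Fos (2.08-fold) and Fosb (1.56-fold), against 1.28% of the genes that reached 5 RPKM and 4.42% of those that reached 0.5 RPKM in a group. No member was past this fold in the higher direction, where 0.319% and 2.78% of genes were. Fosb lay close to the limit. The study also set a limit on a probability of change, and of the 6 members only Fos is in its list of changed genes. Junb (1.36-fold), Fosl2 (1.35-fold) and Jun (1.29-fold) were inside it. A counting interval wholly under 0 was seen in 5 of 6 members, against 19.3% of genes with at least 5 RPKM and 16.8% with at least 0.5 RPKM. A lower mean was seen in 6 of 6 members, against 52.3% and 53.2% of genes. The median log2 ratio of the 6 members was -0.44, against -0.02 over the 14257 genes with at least 0.5 RPKM. The members respond to shared signals and are not independent of each other, and no test over the members was made.

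**Figure D3:**
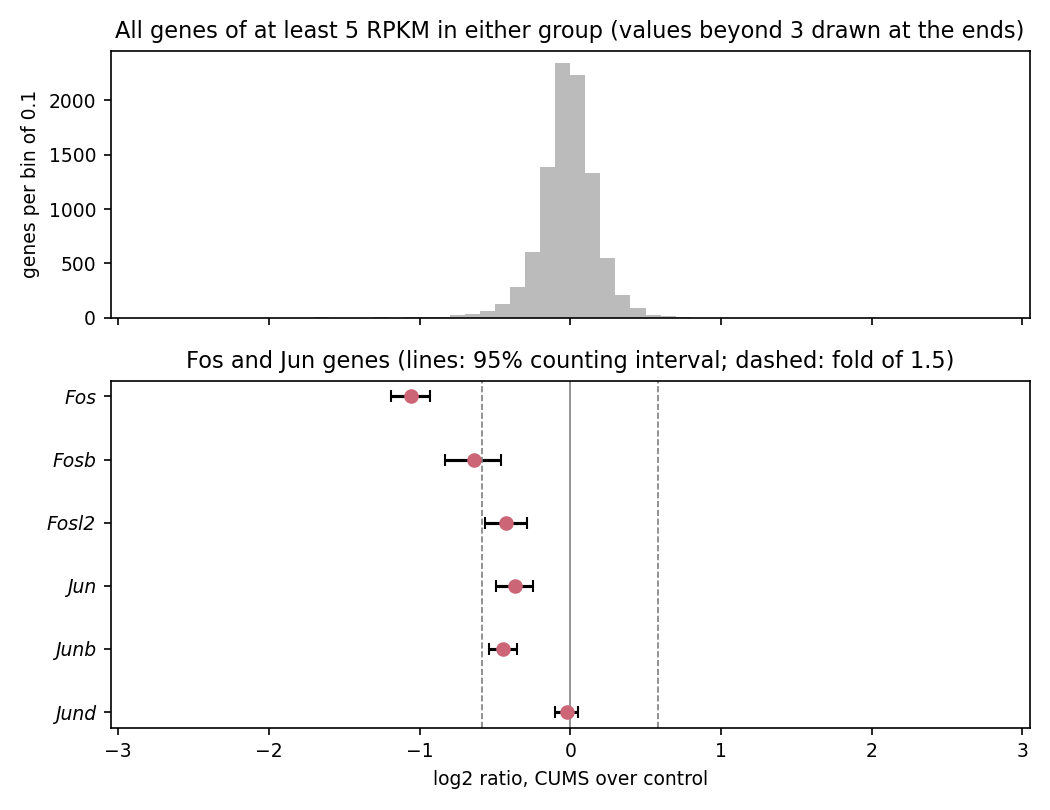
Upper panel, number of genes with at least 5 RPKM per bin of the log2 ratio of CUMS over control. Lower panel, the log2 ratios of the 6 genes on the same axis with 95% counting intervals, a solid line at 0 and dashed lines at a fold of 1.5. Fos (-1.06) and Fosb (-0.64) lie beyond the left dashed line, and the interval of Jund (-0.10 to 0.05) spans 0.

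The members also differed among themselves. The log2 ratio of Fos was below that of Fosb by more than counting error (difference -0.42, counting interval -0.64 to -0.19), below that of Junb (difference -0.61, -0.77 to -0.45) and furthest below that of Jund (difference -1.04, -1.19 to -0.88). The log2 ratio of Fosb differed from that of Jun (-0.27, -0.49 to -0.05), but its difference from Fosl2 (-0.21, -0.44 to 0.02) and from Junb (-0.19, -0.40 to 0.01) stayed within counting error. Fosl2, Jun and Junb could not be separated. Their differences were -0.06 (-0.24 to 0.12) between Fosl2 and Jun, 0.02 (-0.15 to 0.18) between Fosl2 and Junb, and 0.08 (-0.07 to 0.23) between Jun and Junb. Each of these was separated from Jund, by -0.40 (-0.56 to -0.25) for Fosl2, -0.34 (-0.49 to -0.20) for Jun and -0.42 (-0.54 to -0.30) for Junb. In all, 15 pairs were compared.

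The second comparison asked how the pool of Fos and Jun mRNA was made up, since Fos proteins depend on a Jun partner. RPKM is per length, so that the levels can be added. The sum of the 6 genes measured 240.2 RPKM in control and 181.0 in CUMS, a log2 ratio of -0.41 (-0.45 to -0.36). The Fos family (Fos, Fosb and Fosl2) summed to 68.7 RPKM in control and 37.7 in CUMS, a log2 ratio of -0.86 (-0.96 to -0.77). The Jun family (Jun, Junb and Jund) summed to 171.5 RPKM in control and 143.3 in CUMS, a log2 ratio of -0.26 (-0.31 to -0.21). Jun family mRNA was in excess in both groups, which gives no measure of the amounts of the proteins. The Fos family made up 28.6% of the pool in control and 20.8% in CUMS.

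Of the difference of 59.2 RPKM between the sums, Fos accounted for 40.7% and Junb for 35.8%, whereas Jun, Fosb, Fosl2 and Jund accounted for 10.0%, 6.56%, 4.98% and 1.86%. The share of Fos in the pool was 19.3% in control (counting interval 18.4 to 20.2) and 12.3% in CUMS (11.5 to 13.2). The share of Jund was 27.3% in control (26.4 to 28.2) and 35.7% in CUMS (34.5 to 36.8), while its own level was 65.6 and 64.5 RPKM. The share of Junb was 33.1% and 32.2%, that of Jun 11.0% and 11.3%, and that of Fosl2 4.78% and 4.72%, with intervals that overlapped between groups. For each RPKM of Jund mRNA there was 0.71 RPKM of Fos mRNA in control and 0.34 RPKM in CUMS.

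**Figure D4:**
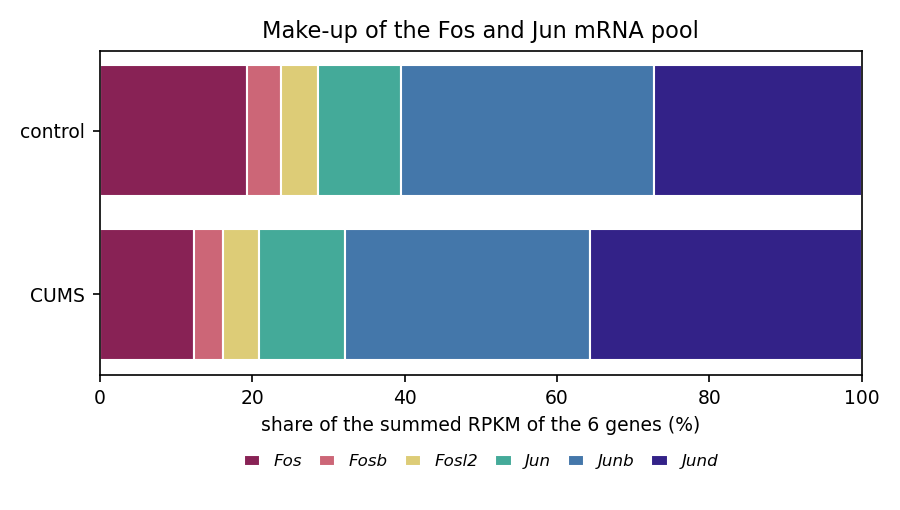
Share of each gene in the summed RPKM of the 6 genes (horizontal axis, percent) in control and CUMS. The segment of Fos is 19.3% in control and 12.3% in CUMS, and that of Jund is 27.3% and 35.7%.

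In order of level, Junb came first in control, followed by Jund, Fos, Jun, Fosl2 and Fosb. Junb was 1.21 times Jund (counting interval 1.15 to 1.28), Jund was 1.42 times Fos (1.33 to 1.51) and Fos was 1.76 times Jun (1.63 to 1.90). The neighbors Fosl2 and Fosb did not differ beyond counting error (1.06 times, 0.96 to 1.18). In CUMS Jund came first, at 1.11 times Junb (1.04 to 1.18), and Fos stood at 1.09 times Jun (0.99 to 1.20), a difference within counting error. Fosl2 was 1.23 times Fosb in CUMS (1.09 to 1.40). The order of Junb and Jund rests on the gene length. The deposited length of Jund is 2878 bases, which is its full RefSeq span, whereas the GENCODE M21 transcript is 1668 bases. With the same fragments and GENCODE lengths Jund would lead in control too, with 39.3% of the pool against 28.1% for Junb. This takes all fragments of Jund as lying within the shorter transcript, which could not be checked. The ratios between groups do not depend on the length. An antisense gene overlaps Jun (Junos, 689 bases) and another overlaps Jund (Gm11175, 919 bases), and the use of strand is not stated, so that reads of these genes could be among the counts of Jun and Jund.

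The mRNAs themselves were also compared in features that the selection by name did not use. Jun, Junb and Jund have 1 exon each in GENCODE M21, and Fos, Fosb and Fosl2 have 4. Immediate early mRNAs often carry AU-rich elements in the 3′ untranslated region, which speed the removal of the mRNA and are built from the pentamer ATTTA (written as DNA). Each member held at least 1 pentamer, as did 65.4% of 20736 genes. Fos held 4 pentamers in 815 bases, 4.91 per kilobase, and 92.0% of these genes had a lower density. Junb held 2 in 485 bases (4.12 per kilobase) and Jun 4 in 1233 bases (3.24 per kilobase). Fosl2 held 8 in 4653 bases (1.72 per kilobase), Jund 1 in 533 bases (1.88 per kilobase) and Fosb 1 in 2145 bases (0.47 per kilobase), against a median of 1.252 per kilobase. Fos had the highest density and the largest difference between groups, and Fosb had the lowest density and the next largest difference. A link between the densities and the differences was not tested. The longer heptamer TATTTAT was found in every member but Junb. It was held by 27.7% of genes, and by 23.5% of those with a 3′ untranslated region of 500 to 1500 bases. The nonamer TTATTTATT was found in Fos and Fosl2 and in 7.65% of genes. The 30 bases around it are printed to show how the pentamers (capitals) sit in these 2 mRNAs.
Fos (bases 642 to 671 of the 3′ untranslated region): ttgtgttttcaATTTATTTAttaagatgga
Fosl2 (bases 3675 to 3704 of the 3′ untranslated region): aattgacATTTAttttattATTTAttttaa

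The third comparison placed the Fos and Jun genes beside the genes around them, in 7 lists given by role. Only genes that reached 0.5 RPKM in control or CUMS were counted. Over all such genes 53.2% were lower, 16.8% had a counting interval under 0 and 12.5% had it over 0 (19.3% and 15.9% of the genes that reached 5 RPKM), and the counts below stand beside these shares. Other proteins that can pair with Fos or Jun were lower in 9 of 11 genes, with a median log2 ratio of -0.16, and 3 counting intervals lay under 0, a share not far from that of all genes, and 1 lay over 0. Fosl1 (Fra-1), the remaining member of the Fos family, measured 2.63 RPKM in control (66 fragments) and 1.57 RPKM in CUMS (40 fragments), a log2 ratio of -0.75 (-1.34 to -0.15). Batf3 was 1.03 and 0.56 RPKM on only 11 and 6 fragments, and its log2 ratio of -0.88 had an interval of -2.60 to 0.68. Among the well-expressed partners, Atf2 measured 15.8 RPKM in control and 11.4 in CUMS, a log2 ratio of -0.47 (-0.61 to -0.33), and Jdp2, a repressor of AP-1, was 27.3 and 26.1 RPKM (-0.07, -0.23 to 0.10). These last 2 genes were chosen after their values were seen.

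Kinases that carry the signal to Fos and Jun were higher more often than lower. Of 16 kinase genes 11 were higher and 5 were lower in CUMS, with a median log2 ratio of 0.11, and 9 counting intervals lay over 0 and 2 under 0. Rps6ka3 (RSK2), which phosphorylates CREB and SRF, measured 1.80 RPKM in control (59 fragments) and 2.97 RPKM in CUMS (98 fragments), a log2 ratio of 0.73 (0.24 to 1.21), and was the only kinase past a fold of 1.5. The Jun kinases Mapk8, Mapk9 and Mapk10 had log2 ratios of 0.31 (0.19 to 0.42), 0.16 (0.09 to 0.22) and 0.18 (0.12 to 0.24). Of the 17 factors that act on the Fos promoter 9 were lower, their median was -0.02, and none was past a fold of 1.5. In this list Creb1 measured 4.07 RPKM in control and 4.14 in CUMS (log2 ratio 0.03, -0.15 to 0.21), and Srf was 24.7 and 22.3 RPKM (-0.15, -0.25 to -0.04). These 3 kinases, Creb1 and Srf were chosen after their values were seen. All are mRNA levels and give no measure of phosphorylation.

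Proteins that bind AU-rich elements were lower in 7 of 9 genes (median -0.15), and 4 counting intervals lay under 0 and none over 0. The genes Zfp36, Zfp36l1 and Zfp36l2, whose proteins speed the removal of such mRNAs, had log2 ratios of -0.41 (-0.94 to 0.11), -0.53 (-0.74 to -0.33) and -0.40 (-0.59 to -0.21), and the stabilizing Elavl genes ranged from -0.15 to 0.06. Ubiquitin ligase components that remove Jun protein had a median of -0.09 over 4 genes. In this list Fbxw7 was the only gene with an interval apart from 0, at 34.01 RPKM in control and 41.0 in CUMS, a log2 ratio of 0.27 (0.18 to 0.36). The Zfp36 and Elavl genes and Fbxw7 were named with their values known.

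Other immediate early genes were lower in 16 of 18 genes, with a median log2 ratio of -0.46. A fold above 1.5 in the lower direction was seen in 7 of them and in the higher direction in none, and 12 counting intervals lay under 0. Cyr61, which encodes a secreted matrix protein, measured 10.6 RPKM in control and 4.56 in CUMS, a log2 ratio of -1.22 (-1.52 to -0.93). Arc, a regulator of synaptic AMPA receptors, was 184.1 and 88.0 RPKM (-1.06, -1.12 to -1.01), a ratio close to that of Fos. Ier2 and Egr2 had log2 ratios of -0.85 (-1.12 to -0.58) and -0.84 (-1.09 to -0.59). Sgk1, a kinase gene that glucocorticoids also induce, was higher in CUMS, at 23.1 and 32.9 RPKM (0.51, 0.39 to 0.64), and was named after its value was seen. Arc, Npas4, Dusp1 and Cyr61, like Fos, are in the study's own list of lowered genes, so that this list is not independent evidence of its direction.

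Genes described as targets of AP-1 or FosB were lower in 5 of 10, with a median of -0.02, and 3 counting intervals lay under 0 and none over 0. Th, the first enzyme of dopamine synthesis, measured 7.78 RPKM in control and 2.44 in CUMS (-1.67, -2.10 to -1.26). Nts, the gene of the peptide neurotensin, was 9.83 and 3.16 RPKM (-1.64, -2.10 to -1.21). The third interval under 0 was that of Penk, the proenkephalin gene and the most abundant of the list, at 166.0 and 120.8 RPKM (-0.46, -0.53 to -0.38), which was named for that reason. Th and Nts are in the study's own list of lowered genes. Th is also in the olfactory bulb marker list and Nts in the septum and hypothalamus marker list below. Mmp9 and Plaur were under 0.5 RPKM in both groups, on 12 and 20 fragments and on 9 and 6 fragments, and their intervals spanned 0.

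**Figure D5:**
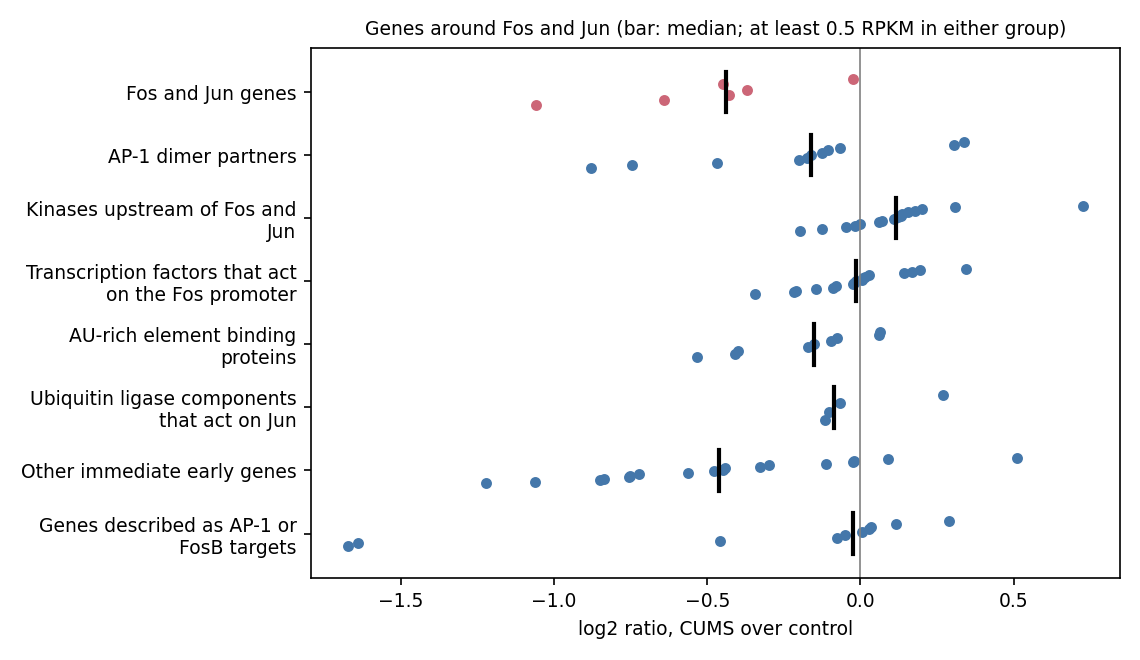
Log2 ratio of CUMS over control (horizontal axis) for the 6 Fos and Jun genes (red) and for the genes of each list that reached 0.5 RPKM in control or CUMS (blue). Each point is 1 gene and black bars are medians. The medians are -0.44 for Fos and Jun genes, -0.46 for other immediate early genes and 0.11 for the upstream kinases.

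By the distance of the 2 group means on the log2 scale, the genes nearest to Fos were Gad2 (43.9 and 23.9 RPKM, distance 0.13), Cldn5 (38.1 and 25.0 RPKM, distance 0.33) and Gng4 (36.2 and 21.6 RPKM, distance 0.36). Those nearest to Jun were Zcchc24, Nacc2 and Cystm1, at distances of 0.03 to 0.04. The likeness rests on 2 values per gene and carries no further meaning.

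Markers of cell types and of neighboring regions moved between the groups too. Genes of neocortical excitatory neurons, which define the labelled tissue, were all present and summed to 788.3 RPKM in control and 976.9 in CUMS, with 8 of 10 genes higher. Markers of septum and hypothalamus were lower in 11 of 11 genes counted (sums of 131.5 and 40.8 RPKM). Those of olfactory bulb were lower in 6 of 7 genes (257.6 and 235.4 RPKM), and those of striatum in 8 of 8 genes (390.0 and 337.4 RPKM). Most of the bulb sums was Nrsn1, the gene that was higher (190.5 RPKM in control and 203.5 in CUMS). The other bulb genes had log2 ratios from -1.68 (Doc2g) to -0.56 (Cdhr1). Oligodendrocyte genes were lower in 6 of 6 genes (1708 and 1139 RPKM) and endothelial genes in 3 of 5 (61.6 and 46.8 RPKM), and GABAergic neuron genes were lower in 3 of 6 (631.8 and 547.7 RPKM). The lower GABAergic genes were Gad1, Gad2 and Slc32a1 (log2 ratios -0.60, -0.88 and -0.78). Pvalb, Sst and Vip were higher (0.19, 0.05 and 0.51), and only the counting interval of Vip lay over 0. Sst alone measured 314.3 RPKM in control and 326.4 in CUMS. Astrocyte genes were lower in 2 of 5 (305.6 and 302.9 RPKM), microglia genes were higher in 4 of 5 (80.7 and 89.8 RPKM) and blood genes were higher in 6 of 6 (222.7 and 390.9 RPKM). Many of these markers are in the study's own list of changed genes, so that the counts are not independent evidence of a direction. They are Nts, Zic1, Baiap3, Ecel1, Peg10, Magel2, Dlk1, Agt and Prkcd for septum and hypothalamus, and Th, Doc2g and Calb2 for olfactory bulb. The others are Mbp, Mobp and Cldn11 for oligodendrocytes, Gad1, Gad2 and Slc32a1 for GABAergic neurons, and Hba-a1, Hba-a2, Hbb-b1 and S100a8 for blood. No marker of these lists was listed at 0. The part of these shifts in the values of the Fos and Jun genes was not tested.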

How the data were processed

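Messenger RNA of 4 libraries (2 control, 2 CUMS) was read in pairs on the Illumina HiSeq platform. The authors trimmed the reads with SolexaQA, aligned them to mm10 with TopHat 1.0.12 and Bowtie 0.11.3, and turned uniquely aligned reads into RPKM per gene. Which gene annotation was used, and whether strand was, is not given in the sources used here. The deposited RPKM values are means over the libraries of a group, and the lowest, 0.01, stands in for 0. The authors' log2 ratio and NOISeq probability columns hold their own comparison and were not used.

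The log2 ratio was computed from the means. Fragments were estimated from the low values: in genes shorter than 1000 bases with a product of mean and length under 350, products fell on whole steps (67.7 in control and 67.2 in CUMS, within 0.15 of a whole number for 86.5% of 406 and 86.2% of 392 values). These steps give about 7385520 (control) and 7440480 (CUMS) fragments per library, taking both libraries of each group as equally deep. This is an estimate, and it is below the read numbers of the study. Exact Clopper-Pearson 95% intervals of ratios and exact Poisson intervals of levels were taken from the fragments, and intervals of sums, shares and differences carry the Poisson error through. All cover counting error only. The method was tested on simulated data. The fold of 1.5 is that of the study, which set a limit on the NOISeq probability as well.

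The members and lists were chosen with earlier results of these data known. Named genes are the members, up to 4 genes per list past a fold of 1.5 with at least 3 fragments in each group, and the 3 genes nearest to Fos and to Jun. Others are marked in the text as chosen with their values known. Promoters are from RefSeq (GRCm38.p6, 6 of 6 members matched), transcripts and 3′ untranslated regions from GENCODE M21 (the longest coding transcript). Python 3.11.15, numpy 2.4.6, scipy 1.17.1, pandas 2.3.3 and matplotlib 3.10.9 were used.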

Additional observations from a re-analysis of the deposited data

How the results depend on the processing

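No paired analysis was possible because libraries had been averaged by group, and leaving out a library could not be run either. The log2 ratios of the members under rescaling of CUMS (to a median ratio of 0 or to an equal total over genes of at least 5 RPKM) and under a pseudocount of 1 RPKM kept their sign and stayed inside the counting interval in 18 of 18 values. The rescalings removed log2 shifts of only -0.0151 and 0.0076, too small to carry a member out of its interval. The medians of the 7 lists kept their sign and stayed within the median bounds of their genes' intervals in 35 of 35 values, under the same settings, a minimum of 5 RPKM, and no minimum with values under 3 fragments raised to 3. With a lower limit of 0.32 on the log2 scale in place of a fold of 1.5, 5 members were past the limit, and with a fold of 2 it was 1, Fos. With the pseudocount it was also 1, since the log2 ratio of Fosb became -0.57. The count of 5 members with an interval under 0 was the same at 0.5 or 2 times the estimated depth and under both rescalings. The shares of the pool moved by the way length enters. As shares of fragments not divided by length, Fos was 15.6% in control and 9.74% in CUMS, Fosb 6.55% and 5.44%, Fosl2 10.8% and 10.4%, Jun 13.4% and 13.5%, Junb 23.4% and 22.3%, and Jund 30.2% and 38.6%. GENCODE M21 lengths, applied to the same fragments, were an alternative added after seeing the data. With them Fos was 16.1% and 9.76%, Fosb 3.76% and 3.04%, Fosl2 3.59% and 3.37%, Jun 9.15% and 8.95%, Junb 28.1% and 26.0%, and Jund 39.3% and 48.9%. The alternatives for the count of intervals were also added after seeing the data. Depth limits Batf3, Mmp9 and Plaur among the named genes, whose intervals span 0, and the lack of single-library values limits all.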
